A study of Drosophila melanogaster with 3 samples.

Results

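The genes for the protein components of the mitochondrial ribosome were examined for binding of Pipsqueak (Psq) in whole Drosophila melanogaster larvae. Every protein-coding gene whose symbol in the Ensembl annotation of the dm6 genome starts with mRpL or mRpS and a number was taken, which gave 73 of 13968 protein-coding genes. By symbol, 47 are named for the large subunit (mRpL) and 26 for the small subunit (mRpS), and the symbol was the only ground for this split. Membership was checked against RefSeq, where the products of all 73 genes are named as mitochondrial ribosomal proteins. A gene was counted as bound when at least 1 summit of the authors' optimal peak list lay within 1000 bp of one of its annotated transcription start sites (TSSs). By this rule 26 members were bound and 47 were not.

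The mitochondrial ribosome translates the few proteins encoded by the mitochondrial genome, which are core subunits of the respiratory chain and of ATP synthase. Its RNAs are transcribed in the mitochondrion, but its proteins are encoded in the nucleus, made in the cytoplasm and imported, so each component has its own nuclear promoter. Part of the protein set descends from the bacterial ribosome and part is specific to mitochondria. Psq is a transcriptional regulator that joins a BTB domain to a DNA-binding region of repeated Psq motifs. It is known to bind GAGA-rich DNA, the sequence also bound by the GAGA factor Trithorax-like, and to act with Polycomb group proteins.

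The series holds 1 group of 3 biological replicates, so no comparison between conditions exists and no test between groups was made. The larvae were at the wandering stage of the third instar, of mixed sex, and carried a transgene in strain psq-GFP that encodes Psq with eGFP at the C-terminal end. Chromatin was sonicated and precipitated with an anti-GFP antibody, so all values describe the tagged protein. In whole larvae, binding in fewer cells and weaker binding per cell cannot be told apart. Read counts were not used here and the depth of each library is unknown, so a gene without a peak is only a gene without a call. The optimal list held 10138 peaks, and the replicate lists, which include background, held 28037, 28294 and 24291 peaks. Each peak carries the authors' score. To bring the replicates onto 1 scale, the score of a peak was divided by the median score of the 10138 highest-scoring peaks of that replicate, called its strong list below. This ratio is the relative score, so a value of 1 is a peak of median strength in the strong list.

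Optimal summits lay within 1000 bp of a TSS at 26 of 73 members (35.6%) and at 28.7% of all protein-coding genes. The order turned when the summit also had to be nearer to the gene's own TSS than to any other, ties included, which left 10 members (13.7%) against 23.0% of protein-coding genes. Thus 38.5% of bound members had their own TSS nearest to a summit, where the share over all bound protein-coding genes was 80.2%. That background includes genes with several TSSs or no close neighbour, and the share for genes of like arrangement is given below. The difference between members and all genes also depended on distance: within 100 bp of a TSS, 12 members (16.4%) had a summit beside 18.6% of protein-coding genes, within 250 bp 17 members (23.3%) and 22.4%, and within 500 bp 24 members (32.9%) and 25.6%. In the strong lists of replicates 1, 2 and 3, the members bound within 1000 bp numbered 28, 26 and 23. This was 35.2% ± 3.45 of members (SD, n = 3) beside 29.1% ± 0.775 of protein-coding genes, and in each replicate the members' share was the higher. When an optimal peak also had to recur in the strong lists of 2 replicates, leaving out replicate 1, 2 or 3 in turn, 18 to 20 members stayed bound (24.7% to 27.4%, beside 21.1% to 21.8% of protein-coding genes). Between 3 and 4 kept their own TSS nearest (4.11% to 5.48%, beside 16.7% to 17.2% of protein-coding genes).

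**Figure D1:**
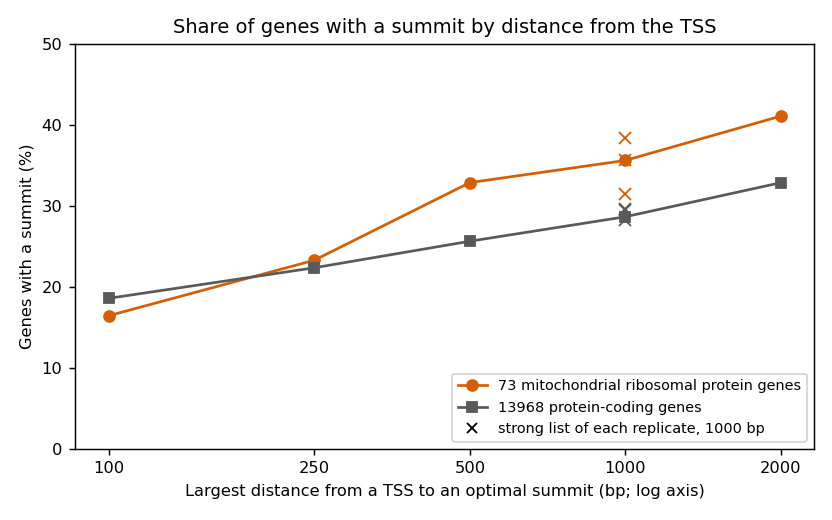
Share of genes (vertical axis, percent) with an optimal summit at up to the distance from a TSS given on the horizontal axis (bp, log scale), for the 73 members and for 13968 protein-coding genes. Crosses give the strong list of each replicate at 1000 bp, and the 2 lines lie close together up to 250 bp and separate at 500 bp (32.9% and 25.6%).

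The members are short genes that mostly stand back to back with another gene. Their median length was 909 bp, against 2164.5 bp for protein-coding genes. A head-to-head neighbour, here a gene on the other strand that starts within 1000 bp upstream, was present at 58 members (79.5%) and at 39.8% of protein-coding genes, and the gap between both TSSs at members ran from 20 to 793 bp with a median of 283 bp. Of these 58 members, 24 (41.4%) were bound, beside 41.1% of all protein-coding genes with such a neighbour. Of the 15 members without one, mRpL13 and mRpL36 (13.3%) were bound, beside 20.4% of protein-coding genes without one. Set against genes alike in this neighbour alone, then, the members' share was near the background in the first case and below it in the second. Both backgrounds include genes with several TSSs. Where genes also had 1 TSS, the members' share with such a neighbour was above the background (45.3% and 32.5%, given below).

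All 26 bound members have a single annotated TSS. They are 38.8% of the 67 members of that kind, against 20.5% of protein-coding genes with 1 TSS. With 1 TSS and a head-to-head neighbour, 24 of 53 members (45.3%) were bound against a background of 32.5%. Their own TSS was nearest at 8 of the 53 (15.1%), against 18.2% of the corresponding protein-coding genes. Among the bound genes of this arrangement, it was nearest at 8 of 24 members, against 56.0% of protein-coding genes.

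The 26 bound members carried 34 summits. Of these, 24 lay nearest to the TSS of another gene, 8 nearest to the member's own TSS, and 2 were tied between the member and another gene. By position, 19 lay between the member's TSS and that of its head-to-head neighbour, 10 lay beyond the neighbour's TSS, 3 lay downstream of the member's TSS and 2 belonged to members with no such neighbour. By annotation, 19 were intergenic, 10 were in 5′ UTRs, 4 in introns and 1 in coding sequence. As many as 27 of the 34 (79.4%) were within 100 bp of some TSS, which was true of 52.4% of the 5237 optimal summits near protein-coding genes. That background was not matched for gene length or for a head-to-head neighbour, which adds a TSS close by at most members. For 16 of the 26 members another gene's TSS was nearest at every summit.

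**Figure D2:**
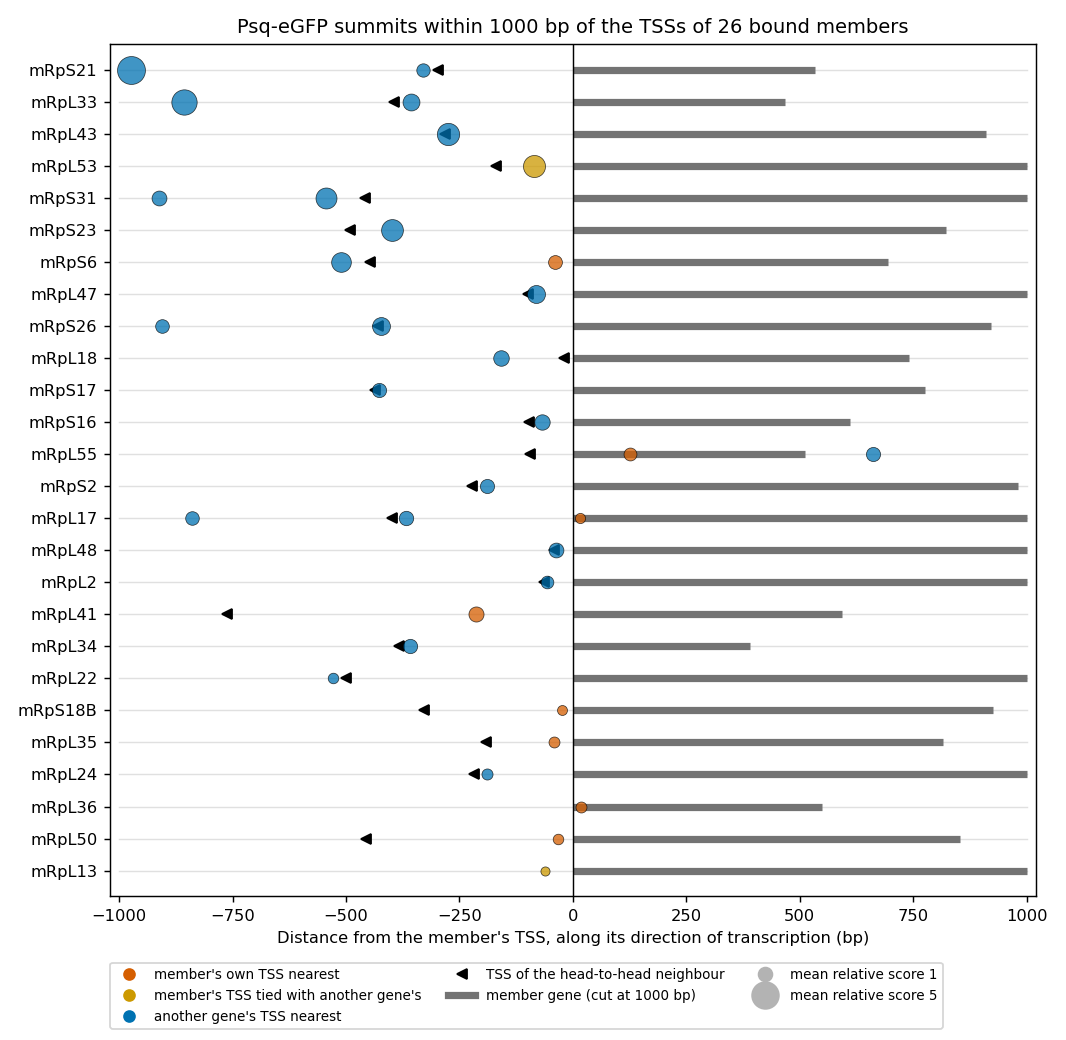
Position of each of the 34 optimal summits relative to the TSS of the bound member (horizontal axis, bp along its direction of transcription), 1 row per member ordered by score. Circles are summits with an area that grows with the mean relative score, triangles the TSS of the head-to-head neighbour and grey bars the member gene; the large circles of mRpS21 (5.53) and mRpL33 (4.48) lie beyond the neighbour's TSS.

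The highest-scoring peaks lay in or at the neighbouring genes, and several held GAGAG, the word searched here on both strands as the core of the GAGA-rich sequence. For 4 of these members 30 bases are shown around the longest GA run within 100 bp of 1 summit, since they carry the word that Psq is known for. For mRpS21, mRpL33 and mRpS31 this is the main summit, and for mRpS26 it is the only summit with the word. They are written 5′ to 3′ on the plus strand of dm6, from the RefSeq genome sequence, with GAGAG or its reverse complement CTCTC in capitals.
mRpS21, in Droj2, chr3R:13382841-13382870: cgaaagggggaaaGAGAGcgtcagctgctc
mRpL33, in norpA, chrX:4323092-4323121: ggaagcttcaaaaGAGAGacaagagcgtga
mRpS31, in hzg, chr3L:16004562-16004591: gcactcacacacaCTCTCgcacgcacacta
mRpS26, in CG13698, chr3L:18105721-18105750: gaaaGAGAGcGAGAGAGAGAGggagctatg

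At mRpS21 (FBgn0044511 in the annotation), which encodes a small subunit protein, the main summit had an optimal score of 1016 (rank 209 in the list) and relative scores of 5.29, 5.74 and 5.56 in replicates 1, 2 and 3. All replicates were high and close to each other (5.53 ± 0.227, SD, n = 3). The summit lay 973 bp upstream of mRpS21, inside an intron of its neighbour Droj2, a gene for a DnaJ-type co-chaperone, and 40 bp from a TSS of Droj2. The GA site printed above was centred 74 bp from it. A second summit 330 bp upstream of mRpS21, in the 5′ UTR of Droj2, scored 97.6, with relative scores of 0.996 and 0.854 in replicates 1 and 2 and none matched in replicate 3.

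At mRpL33, kin of a bacterial large subunit protein, the main summit scored 822 (rank 325), with relative scores of 4.01, 4.94 and 4.48. It lay 857 bp upstream in the 5′ UTR of norpA, which encodes the phospholipase C of fly phototransduction, and the GA site above was centred 19 bp from it. A lower summit 356 bp upstream of mRpL33 and 39 bp from the TSS of norpA scored 301, with relative scores of 1.59, 1.68 and 1.96. The main summit exceeded the lower one in every replicate.

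At mRpS31, a mitochondria-specific small subunit gene, the main summit scored 560 (rank 806), with relative scores of 2.13, 3.20 and 3.46, and lay 544 bp upstream in the 5′ UTR of hzg. Replicate 1 was the lowest (2.93 ± 0.706, SD, n = 3). A second summit 913 bp upstream, in an intron of hzg, had relative scores of 1.49 and 1.01 in replicates 1 and 3. The longest GA run near this second summit, not printed, was 8 bp long, and that in the site printed for the main summit was 5 bp.

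At mRpS26, also mitochondria-specific, the GAGAG word and the higher score fell on different summits. The summit at 422 bp upstream, 8 bp from the TSS of CG13698, scored 318 (rank 2233), had relative scores of 2.01, 1.41 and 2.60, and held no GAGAG within 100 bp. The summit at 905 bp upstream, in the 5′ UTR of CG13698, scored 168, had relative scores of 1.07, 1.02 and 0.868, and held 6 occurrences, overlaps counted.

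Strong peaks without GAGAG occurred as well. At mRpS23 the only summit scored 552 (rank 825), with relative scores of 3.92, 3.04 and 2.63, and lay 399 bp upstream and 93 bp from the TSS of CenG1A, a gene for an Arf GTPase-activating protein. At mRpS6, kin of bacterial S6, the main summit scored 437 (rank 1294), with relative scores of 1.97, 2.66 and 2.94, in the 5′ UTR of Cip4, whose product is an F-BAR protein of membrane remodelling. At mRpL47, the counterpart of the bacterial protein uL29 at the exit of the peptide tunnel, the summit scored 380 (rank 1651), with relative scores of 1.96, 1.83 and 2.30. It lay 81 bp upstream, 18 bp from the TSSs of both CG8176 and the histone demethylase gene Kdm3. In these 3 cases every replicate was at 1.83 or higher, and no summit had GAGAG within 100 bp.

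Summits nearest to a member's own TSS alone were weaker. The 8 summits nearest to a member's own TSS alone had a median relative score of 0.476 (range 0.311 to 1.30) and a median rank of 9107 of the optimal list, 7 of them below the list's median score of 181. The 24 nearest to another gene's TSS had a median of 1.24 (range 0.405 to 5.53) and a median rank of 3371.5. All 5237 optimal summits near protein-coding genes had a median of 1.08 and a median rank of 4512. A strong summit in all 3 replicates was found at 2 of the 8 own-TSS summits and at 17 of the 24 others. Other summits lay within 100 bp of a member's TSS but were nearer to, or tied with, that of another gene. Their mean relative scores were 3.27 (mRpL53), 2.03 (mRpL47), 1.37 (mRpS16), 1.23 (mRpL48), 0.782 (mRpL2) and 0.192 (mRpL13). None of the 8 own-TSS summits had GAGAG within 100 bp. The sequence at 4 of them is shown because it is the promoter DNA of the members themselves. Each stretch spans up to 75 bp on each side of the summit, stops where an annotated UTR begins, and is written on the plus strand of dm6 from the RefSeq genome sequence. No capitals appear because neither GAGAG, TATCGATA nor GGTCACAC occurs in these stretches. TATCGATA lay within 100 bp of the mRpS18B summit, outside the stretch shown, and within 100 bp of the own-TSS summit of mRpL17.
mRpS6, chr3L:4364435-4364549: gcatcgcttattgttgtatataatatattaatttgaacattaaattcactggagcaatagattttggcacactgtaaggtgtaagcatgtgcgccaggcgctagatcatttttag
mRpL35, chr3R:22023411-22023526: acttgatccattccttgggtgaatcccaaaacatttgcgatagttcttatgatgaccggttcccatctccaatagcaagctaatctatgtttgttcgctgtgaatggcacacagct
mRpL50, chr3L:7243934-7244041: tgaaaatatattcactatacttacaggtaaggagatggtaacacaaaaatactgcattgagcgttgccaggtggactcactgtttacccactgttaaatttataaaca
mRpS18B, chr2L:20097254-20097352: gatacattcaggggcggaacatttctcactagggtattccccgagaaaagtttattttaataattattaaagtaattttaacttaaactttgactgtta

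The own-TSS summit of mRpS6, 40 bp upstream and with a score of 251, had relative scores of 0.999, 1.46 and 0.604 (1.02 ± 0.429, SD, n = 3). It was the strongest of the 4 shown and lower in every replicate than the Cip4 summit of the same member. At mRpL35, kin of a bacterial large subunit protein, the summit 41 bp upstream had relative scores of 0.502, 0.427 and 0.497, all near 0.5. Its head-to-head neighbour, 192 bp away, is Mitofilin, a gene for the complex that shapes the inner mitochondrial membrane. At mRpL50, a mitochondria-specific gene, the summit 33 bp upstream had relative scores of 0.107, 0.560 and 0.558. The low value came from a replicate 1 summit 147 bp away. Matched within 100 bp alone, replicate 1 dropped out and the mean was 0.559. At mRpS18B the summit 24 bp upstream had relative scores of 0.313 and 0.310 in replicates 1 and 2 and none in replicate 3, and it reached the strong list of no replicate. Its replicate 1 match lay 125 bp away.

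Other own-TSS summits were of the same order. At mRpL36, kin of a small bacterial large subunit protein, the summit 19 bp inside the 5′ UTR had relative scores of 0.525 and 0.428 in replicates 1 and 2, with none matched in replicate 3. At mRpL17, which sits at the tunnel exit, the summit 15 bp inside the 5′ UTR had relative scores of 0.437, 0.283 and 0.343. At mRpL55 the summit 125 bp into the gene, in coding sequence, was matched in replicate 1 alone, at 0.827. At mRpL13 a summit 62 bp upstream was tied with CG10602, which starts at the same base, and had relative scores of 0.233 and 0.151 in replicates 1 and 3. This was the lowest mean among all members' summits, 0.192 ± 0.058 (SD, n = 2), and it was in no strong list.

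**Figure D3:**
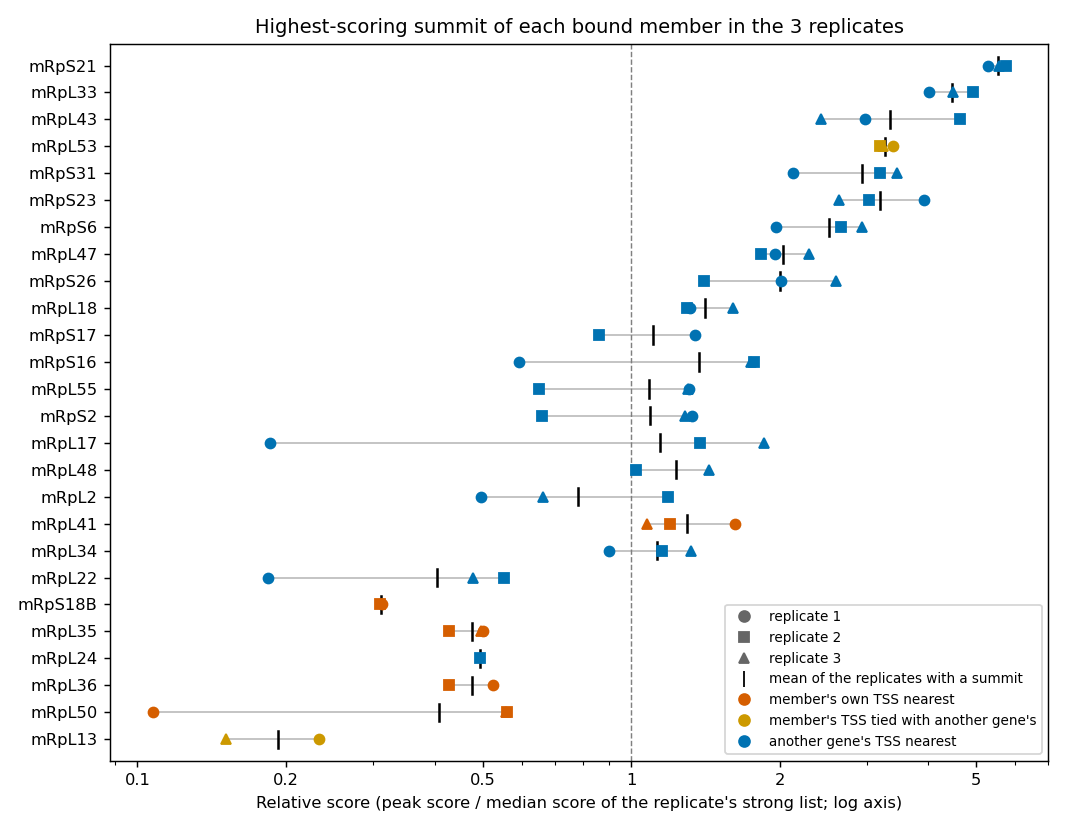
Relative score (horizontal axis, log scale; 1 is the median of the replicate's strong list) of the highest-scoring optimal summit of each bound member in replicates 1 (circle), 2 (square) and 3 (triangle), ordered by optimal score. Black ticks are means of the replicates with a matched summit; mRpS21 lies between 5.29 and 5.74, and of the members coloured for their own TSS only mRpL41 has a mean above 1 (1.30).

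Arm 2R held 7 of the bound members, and 5 of the 12 highest-scoring. At mRpL43 the summit scored 631 (rank 598), with relative scores of 2.98, 4.64 and 2.42, replicate 2 being clearly the highest. It lay 6 bp from the TSS of CG30183, and the 100 bp on each side held 5 occurrences of GAGAG. At mRpL53 the summit scored 563 (rank 792), with nearly equal relative scores of 3.40, 3.19 and 3.23. It lay 85 bp upstream of mRpL53, which starts at the same base as CG33155, and equally far from a TSS of AGO1, the gene of the Argonaute protein of the microRNA pathway, so the nearest gene cannot be told.

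Lower scores on the same arm were found at 3 further members of the top 12. At mRpL18 the summit scored 294 (rank 2548), with relative scores of 1.32, 1.30 and 1.61, in the 5′ UTR of Taz, which encodes tafazzin, the transacylase of cardiolipin in the inner mitochondrial membrane. Only 20 bp separate the TSSs of mRpL18 and Taz, and the summit lay 139 bp inside the latter. At mRpS17 the summit scored 262 (rank 3054), with relative scores of 1.35 and 0.860 in replicates 1 and 2 and none within 200 bp in replicate 3, and lay 8 bp from the TSS of Nop60B, which encodes the pseudouridine synthase of small nucleolar ribonucleoproteins. At mRpS16 the summit scored 247 (rank 3324), with relative scores of 0.594, 1.77 and 1.75, 29 bp from the TSS of combgap (cg), a gene for a zinc finger protein. Replicate 1 was the low one there.

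The mRpL41 gene carried the only own-TSS summit of the 8 with a relative score above 1 in every replicate. Its summit, 214 bp upstream, scored 164 (rank 5629) and had relative scores of 1.62, 1.20 and 1.08 (1.30 ± 0.287, SD, n = 3). The neighbour's TSS, that of CG8079, was 762 bp away, so the summit stood within the intergenic region and not at either start.

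The remaining bound members had summits nearest to other genes, with mean relative scores of 0.405 to 1.23. They were mRpL2 (nearest FoxK, a forkhead factor gene), mRpL22 (if, the alpha-PS2 integrin), mRpL24 (betaggt-I, a subunit of an enzyme that prenylates proteins), mRpL34 (Dg, dystroglycan), mRpL48 (CG17660) and mRpS2 (Mon1, which acts in the activation of Rab7). The mRpL24 summit was matched in replicate 2 alone (0.494), and that of mRpL48 in replicates 2 and 3. At mRpL17, 2 further summits lay nearest to Tudor-SN, and at mRpL55 a further summit lay nearest to the kinase gene cdi, beyond the end of mRpL55 and on the side away from its head-to-head neighbour ATPsynD. At mRpL17 the better of the Tudor-SN summits had relative scores of 0.186, 1.38 and 1.86, with replicate 1 far below the other two.

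By symbol, 17 of 47 mRpL genes (36.2%) and 9 of 26 mRpS genes (34.6%) were bound, which are nearly equal shares. Their own TSS was nearest at 8 mRpL genes (17.0%) and 2 mRpS genes (7.69%), beside 23.0% of all protein-coding genes. Of the 44 genes numbered as kin of bacterial ribosomal proteins 17 were bound (38.6%), as were 9 of the 29 numbered as mitochondria-specific (31.0%). This split follows the numbers in the symbols, with mRpL47 and mRpS24 placed among the bacterial kin, and single genes may be misplaced. Within the large subunit, none of the 3 genes of the stalk that recruits translation factors (mRpL10, mRpL11 and mRpL12) and not mRpL1 of the L1 stalk was bound. At the exit of the peptide tunnel mRpL17, mRpL22, mRpL24 and mRpL47 were bound of 8 genes, and in the central protuberance mRpL48 was bound of 4. These groups hold few genes each, and their counts are to be read beside the 28.7% of all protein-coding genes. By chromosome arm, 6 of 12 members were bound on 2L, 7 of 12 on 2R, 7 of 17 on 3L, 4 of 21 on 3R and 2 of 11 on X. On 3R and X these shares, 19.0% and 18.2%, were below the 28.5% and 29.6% of protein-coding genes bound on the same arms. On 2L, 2R and 3L, at 50%, 58.3% and 41.2%, they were above 25.2%, 29.9% and 30.8%.

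Of the 47 members not bound, 36 had no summit of any strong list within 1000 bp of a TSS. Their nearest optimal summit was from 1284 to 1658370 bp away over all 47, with a median of 8872 bp. The distance of 1284 bp belonged to mRpL27, the first member outside the threshold, and the most distant of the bound members had its nearest summit at 544 bp. A strong summit in at least 1 replicate was found at 11 of the 47 (23.4%), beside 12.4% of the 9965 protein-coding genes that were not bound. It was in replicate 1 for 8 of them (17.0%, beside 6.64%) and in replicates 2 and 3 for 2 each (4.26%, beside 5.38% and 4.91%), so the members' share was above the background in replicate 1 alone. The only one with a strong summit in more than 1 replicate was mRpL23, a protein of the tunnel exit, with relative scores of 2.14 in replicate 1 and 0.993 in replicate 2, both within 25 bp of its own TSS, and no peak in replicate 3. At mRpS10 the relative score was 2.33 in replicate 1 with no peak in the others, and at mRpS14 it was 1.53 in replicate 3 alone, 2 bp from its TSS. At mRpS11 it was 1.13 in replicate 2 alone. The others were mRpL16, mRpL19, mRpL20, mRpL27, mRpL28, mRpL49 and mRpL51, between 0.487 and 1.09, with a strong summit in 1 replicate each. In the full replicate lists mRpL49 had a peak in all 3 replicates (0.537, 0.174 and 0.279), and mRpL19 and mRpL20 had one in replicates 1 and 2. None of the 11 had a strong summit in all 3 replicates, whereas 18 of the 26 bound members did. The optimal list was itself filtered for reproducibility, so this contrast follows in part from how bound was defined. Of the bound members' summits, 58.8% had a strong summit in all 3 replicates, beside 61.7% of all optimal summits near protein-coding genes.

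No summit of any strong list was within 1000 bp of the other members. Under mRpL symbols these were mRpL1, mRpL3, mRpL4, mRpL9, mRpL10, mRpL11, mRpL12, mRpL14, mRpL15, mRpL21, mRpL30, mRpL32, mRpL37, mRpL38, mRpL39, mRpL40, mRpL42, mRpL44, mRpL45, mRpL46, mRpL52 and mRpL54. Under mRpS symbols they were mRpS5, mRpS7, mRpS9, mRpS18A, mRpS18C, mRpS22, mRpS24, mRpS25, mRpS28, mRpS29, mRpS30, mRpS33, mRpS34 and mRpS35.

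The members' promoters, taken from 250 bp before to 50 bp after the most upstream TSS, were short of GAGAG and had more of the DNA replication-related element (DRE), the palindrome TATCGATA known to be bound by the factor DREF at promoters of growth and housekeeping genes. GAGAG, on either strand, was in the promoters of 16.4% of members and 29.8% of protein-coding genes. TATCGATA was in 15 of 73 members' promoters (20.5%) and in 9.36% of protein-coding genes, and its core CGATA, which overlaps it, in 58.9% and 47.4%. The full DRE was in 4 of the 26 bound members (15.4%), beside 13.7% of bound protein-coding genes, and in 11 of the 47 others (23.4%). Promoters of 4 members that were not bound are shown for this word, as the 60 bases before the TSS on the strand of the gene, 5′ to 3′, from the RefSeq genome sequence of dm6, with TATCGATA in capitals.
mRpL10, chr2L:203719-203778, plus strand: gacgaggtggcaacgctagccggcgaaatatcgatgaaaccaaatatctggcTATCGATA
mRpL32, chr3R:31252812-31252871, plus strand: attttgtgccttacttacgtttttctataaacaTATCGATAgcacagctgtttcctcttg
mRpL39, chr3L:14999667-14999726, minus strand: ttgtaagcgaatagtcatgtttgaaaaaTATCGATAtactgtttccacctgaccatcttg
mRpS25, chrX:14582983-14583042, minus strand: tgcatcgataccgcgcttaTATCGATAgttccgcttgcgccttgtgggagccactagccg

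The word ends at the base before the TSS in mRpL10 and lies further upstream in the other promoters shown. The Motif 1 word GGTCACAC, known as a site of the promoter factor M1BP, was in 6 of 26 bound members' promoters (23.1%), in 2 of 47 others (4.26%), in 11.1% of bound protein-coding genes and in 7.70% of all protein-coding genes. The E-box CACGTG, the site of Myc and related factors, was in 5 members' promoters, all of members not bound. They were mRpL16, mRpL23, mRpL27, mRpS11 and mRpS14, each with a strong summit in at least 1 replicate within 1000 bp of a TSS. The E-box was also rare elsewhere, in 4.23% of all and 4.72% of bound protein-coding genes, so its absence from 26 promoters is near the background. These shares describe the letters in the window and were not tested.

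At the summits, GAGAG lay within 100 bp of 9 of the members' 34 (26.5%), beside 46.5% of the 5237 optimal summits near protein-coding genes. All 9 were nearest to another gene's TSS or tied. In the strong lists of replicates 1, 2 and 3, the share at members was 22.2%, 25.0% and 27.8% of 36 summits each. Of the 6 members whose best summit ranked in the first 1010 of the optimal list, 5 had the word there, as did 58.7% of the 549 summits of that rank near protein-coding genes. GGTCACAC was within 100 bp of 7 of the 34 (20.6%), against 4.83% over all 5237, and none of these 7 was a summit nearest to a member's own TSS alone. It is shown for mRpL48, whose summit lay 4 bp from the TSS of CG17660 in the 41 bp between both genes, with the reverse complement GTGTGACC in capitals on the plus strand of dm6.
mRpL48, chr2L:1710422-1710461: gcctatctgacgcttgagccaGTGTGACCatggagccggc

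**Figure D4:**
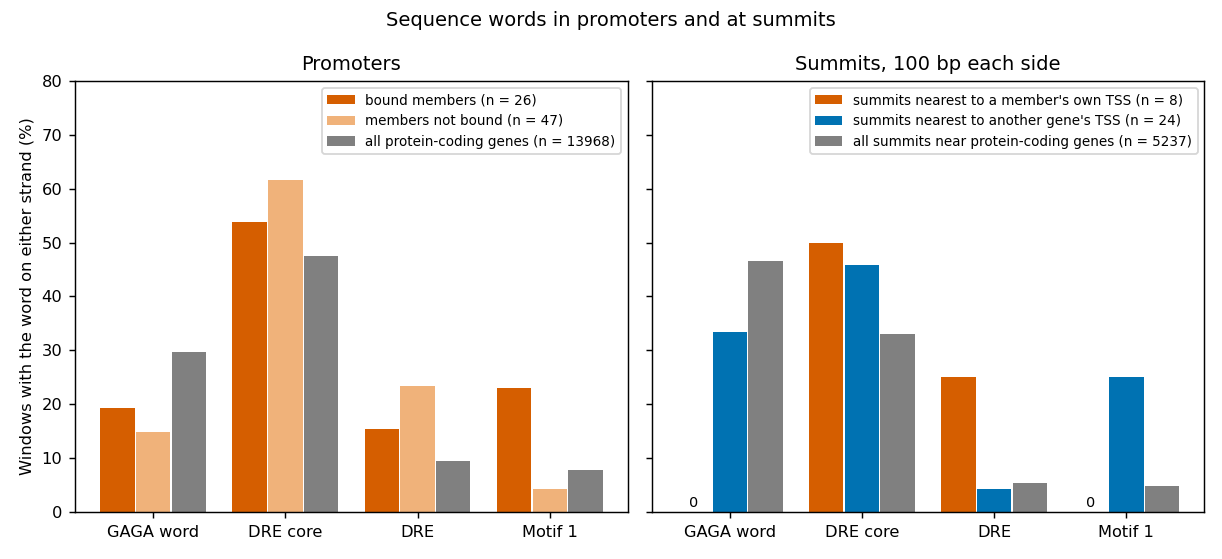
Share of windows (vertical axis, percent) with GAGAG (GAGA word), CGATA (DRE core), TATCGATA (DRE) or GGTCACAC (Motif 1) on either strand, in promoters on the left and within 100 bp of summits on the right. GAGAG is at 0 in the 8 summits nearest to a member's own TSS and at 33.3% of the 24 nearest to another gene's.

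Genes of other mitochondrial and ribosomal lists were counted in the same way, as a description with no test. Cytoplasmic ribosomal protein genes, whose products make up the ribosome outside the organelle, were bound in 62 of 89 cases (69.7%), and their own TSS was nearest in 55 (61.8%), although 62.9% of them also have a head-to-head neighbour. Among ATP synthase genes 9 of 15 were bound (60%), with the own TSS nearest in 4. The best summit of ATPsynD, which is among these 9, is the cdi summit also counted at its neighbour mRpL55. The 40 genes for subunits of complex I, the entry point of the respiratory chain, gave 9 bound (22.5%), with the own TSS nearest in 6. A head-to-head neighbour was present at 66.7% of the ATP synthase genes and 60% of the complex I genes.

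Other genes of mitochondrial gene expression gave small counts, to be read beside the 28.7% of all protein-coding genes. Head-to-head neighbours were present at 37.5% to 72.7% of these lists. The mitochondrial aminoacyl-tRNA synthetase genes gave 2 bound of 15 (13.3%). Of 11 translation factor symbols looked up, 8 matched the annotation and 1 was bound (12.5%), which was mIF2 at a mean relative score of 0.359. Of 11 genes for transcription and maintenance of the mitochondrial genome, bsf and mtSSB were bound (18.2%). The gene for the single-stranded DNA-binding protein mtSSB had the highest mean relative score of these 3 lists, 2.56 ± 0.541 (SD, n = 3), with its own TSS nearest. The genes tko and bonsai, which encode mitochondrial ribosomal proteins S12 and S15 under other symbols, were not bound.

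**Figure D5:**
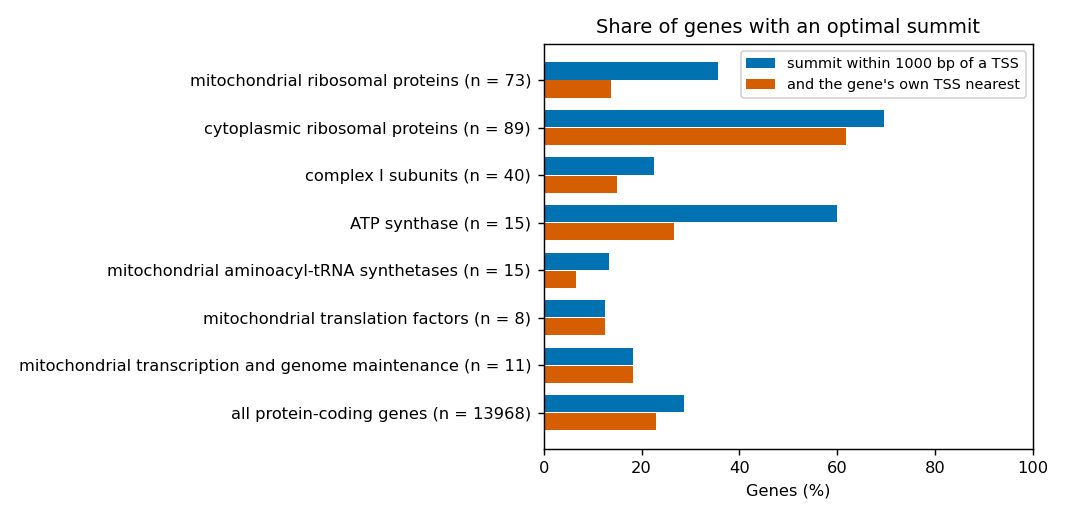
Share of genes (horizontal axis, percent) with an optimal summit within 1000 bp of a TSS (blue) and with the gene's own TSS nearest to such a summit (orange), for each list and for all protein-coding genes. The 2 bars are 35.6% and 13.7% for the mitochondrial ribosomal protein genes, and 69.7% and 61.8% for the cytoplasmic ones.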

How the data were processed

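The authors called peaks per replicate and on all replicates together against 1 control alignment, and thresholded the optimal list by the irreproducible discovery rate, per the authors' deposited file listing. Which caller, aligner and filters were used is not given in the sources used here. The score (signal value) of each peak is the authors' deposited value on a scale that is not stated. The −log10 of the q value deposited per peak is tied over the whole optimal list (4.32) and was not used for ranking. The other deposited column used is the summit offset, from which summits were computed on dm6. TSSs came from Ensembl release 115 without transposable elements, sequence from RefSeq. Replicate summits within 200 bp of an optimal summit were matched. Mean ± SD covers replicates with a match. A head-to-head neighbour starts on the other strand within 1000 bp upstream, or overlaps by under 100 bp. All bound members are named, with values in every replicate for the 12 highest-scoring and those whose own TSS is nearest. The members, gene lists and words were chosen with earlier results of these data known. Python 3.11.15, NumPy 2.4.6 and matplotlib 3.10.9 were used. The distance steps and the search for GAGAG were tested on simulated data, and the matching of replicate summits was not. Alternatives to the window, list, matching distance and replicates were computed. Lists on dm3 were not used here. Columns of samples outside the series numbered 0.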

Additional observations from a re-analysis of the deposited data

How the results depend on the processing

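Read depth is unknown, 1 control served all replicates, and a summit between close TSSs cannot be given to either gene by distance alone. The count of 26 bound members became 17 within 250 bp of a TSS, 24 within 500 bp and 30 within 2000 bp, and 17 with the optimal peaks above the median score alone. Without replicate 1, 2 or 3, it was 18 to 20, where an optimal peak had to recur in both other replicates. It stayed at 26 with tko and bonsai added. The 10 members with their own TSS nearest became 2 with the peaks above the median score, 6 in the strong list of replicate 3, and 3 to 4 on leaving out a replicate. With a head-to-head neighbour, 15 members were bound within 250 bp, against 24. The share of protein-coding genes bound was 22.4%, 25.6% and 32.9% within 250, 500 and 2000 bp, 18.4% with the peaks above the median score, 29.4% and 29.7% in the strong lists of replicates 1 and 2, 21.1% to 21.8% on leaving out a replicate, and 26.9% with the most upstream TSS alone. The median relative score of bound members, 1.19, corresponded to percentile 56.1 when scores were ranked within the strong lists, and 1.07 to 1.35 on leaving out a replicate. GAGAG at members' summits was 17.6% within 50 bp and 47.1% within 250 bp (30% and 64.4% over all summits near protein-coding genes). In promoters it was 38.4% with 500 bp and 8.22% with 100 bp before the TSS (44.2% and 18.1% over all protein-coding genes), so the members' share was lower in each window. For single members, 99 of 100 alternatives moved the mean relative score by less than 1 SD. That SD is over the same replicates, so leaving 1 of them out could not have moved the mean further. The count is therefore no measure of how stable these scores are. No paired analysis was possible because the series has a single group.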
